A study of Mus musculus with 6 samples.

Results

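The genes of MHC class II presentation described here are H2-Aa, H2-Ab1, H2-Eb1, H2-DMa, H2-DMb1, H2-DMb2, H2-Oa, Cd74, Ciita and March1. They were chosen by symbol, and the gene IDs of the count table matched all 10 of them among 54446 genes. RNA was sequenced from bone marrow-derived macrophages (BMDMs) of male BALB/c mice aged 6 to 8 weeks, which had been grown for 7 days in medium with 20% L929-conditioned medium as a source of M-CSF. The cells were left unpolarized (M0), polarized for 24 h with 20 ng/mL IFN-γ and 50 ng/mL LPS (M1), or polarized for 24 h with 20 ng/mL IL4 (M2). In each state 1 library came from cells given DMSO (control) and 1 from cells given 1 µM regorafenib, a multikinase inhibitor, which polarized cells received 1 h before the cytokines. The sources do not say how many mice were behind a library, or how long M0 cells were kept with regorafenib.

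A class II molecule is a pair of α and β chains that shows peptides from endosomes to CD4+ T cells. Mice have 2 such molecules, I-A and I-E. The invariant chain (Cd74) fills the groove of a new molecule and leads it to endosomes, where H2-DM exchanges the last piece of the invariant chain for a peptide and H2-O holds H2-DM back. Ciita is the coactivator of these genes: it binds no DNA itself and is recruited by factors on the X and Y boxes of their promoters, and IFN-γ is known to induce it in macrophages. March1 is a ubiquitin ligase that marks class II molecules at the surface for uptake and breakdown. Resting macrophages carry little class II.

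On GRCm38, 7 of the 10 genes lie within the MHC on chromosome 17. The I-A chains are H2-Aa (chr17:34282744-34287823, - strand) and H2-Ab1 (chr17:34257689-34269419, + strand), and H2-Eb1 (chr17:34305867-34316674, + strand) encodes the β chain of I-E. H2-DMa (chr17:34119541-34139101), H2-DMb1 (chr17:34153072-34160230), H2-DMb2 (chr17:34143307-34151555) and H2-Oa (chr17:34092340-34095234) are all on the + strand. Cd74 is on chromosome 18 (chr18:60803848-60812652), Ciita on chromosome 16 (chr16:10480059-10528418) and March1 on chromosome 8 (chr8:65617900-66471637), each on the + strand and annotated as protein coding.

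The α chain of I-E, annotated as the polymorphic pseudogene H2-Ea-ps (chr17:34341959-34344645, - strand), is broken in the C57BL/6 mice of the reference genome and intact in BALB/c mice. It is therefore described beside H2-Eb1, together with the β chain of H2-O, H2-Ob (chr17:34238903-34254414, + strand).

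The promoters of 4 of these genes are shown because they hold letters of the X and Y boxes, the elements through which Ciita is known to act. The stretches come from RefSeq promoter windows of GRCm38.p6, 250 bases before to 50 after a gene's start. The capitals mark GNAAC, the core of the X box, then ATTGG, the Y box, and in H2-Aa also TGACGTCA, a cAMP response element that overlaps neither.
H2-Aa (chr17:34287864-34287924, - strand): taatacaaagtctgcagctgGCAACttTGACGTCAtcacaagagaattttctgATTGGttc
H2-Eb1 (chr17:34305756-34305815, + strand): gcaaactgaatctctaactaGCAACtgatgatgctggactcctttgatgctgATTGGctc
H2-Oa (chr17:34092283-34092343, + strand): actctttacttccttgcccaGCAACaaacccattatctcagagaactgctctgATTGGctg
H2-Ob (chr17:34238798-34238855, + strand): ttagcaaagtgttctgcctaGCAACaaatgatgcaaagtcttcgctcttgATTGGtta

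GNAAC followed by ATTGG at a distance of 28 to 36 bases between their first letters, on either strand, was found in 508 of 32851 promoter windows, or 1.55%. Windows were given for 7 of the 10 genes, H2-Aa, H2-Eb1, H2-DMa, H2-DMb1, H2-DMb2, H2-Oa and March1, and the pair of motifs stood in 4 of them. The first letter of the X core lay 81 bases before the start in H2-Aa, 91 in H2-Eb1, 94 in H2-DMb1 and 76 in H2-Oa, and the Y box followed 33, 32, 33 and 33 bases later. H2-Ob and H2-Eb2, a further β chain gene, held the pair too, with the X core 87 and 132 bases before the start. The windows of H2-DMa, H2-DMb2 and March1 did not hold it. TGACGTCA occurred in 1.79% of windows, and among the class II genes with a window in that of H2-Aa. These matches describe letters in a window and were not tested as sites.

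The libraries held between 25359309 and 34898342 counts. With 1 library per condition, a ratio between 2 libraries has no replicate check, and its 95% interval (conditional exact binomial) covers counting error only. Levels are CPM, counts relative to the library total after TMM scaling, and a gene is called past 2-fold where the absolute log2 ratio is at least 1 and 1 of the 2 libraries has at least 10 counts. Of the label check genes, Nos2 and Mrc1 are given, and both fitted the states. Nos2 had 410649 and 221627 counts in the M1 control and regorafenib libraries and at most 50 elsewhere. Mrc1 had 24237 and 12895 in M2 and at most 805 elsewhere. All 8 macrophage markers were above 3 counts in each library, with a summed level between 21610 and 48240 CPM, most of it Lyz2.

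Other cell types carry class II, so their markers stand beside all results below. Of 8 B cell markers, Ms4a1 and Pax5 were at 0 in all libraries, and the summed level was 5.34 CPM in M0 control, 9.92 in M0 regorafenib, 0.968 and 0.705 in M1, then 3.81 and 9.87 in M2. Ighm or Cd22 was the most abundant of them in each library. Of 10 dendritic cell markers, 4 to 6 were above 3 counts. Siglech was at 0 throughout and Flt3 at 3 counts or fewer, whereas Itgax, which macrophages also express, had 5849 and 9449 counts in M2 and at most 669 elsewhere. Ccr7, a chemokine receptor of maturing dendritic cells, had 780 and 827 counts in M1 and at most 9 elsewhere, and Xcr1 had 36 and 102 in M1 and at most 1 elsewhere. The dendritic cell factors Batf3 and Zbtb46 had 95 and 194, and 15 and 59, in M2. The summed dendritic level was 12.1 and 16.4 CPM in M0, 49.9 and 68.3 in M1, then 164 and 348 in M2, control first. T cell markers, nearly all of them Cd2 in M0 and M2, summed to 1.92 and 8.65 CPM in M0, 0.0387 and 0.0415 in M1, then 4.66 and 13.6 in M2. Fibroblast markers summed to 3.19 and 10.2 CPM in M0, 9.10 and 6.85 in M1, then 3.56 and 5.75 in M2, and neutrophil markers, led by Mpo, to 84.8 and 158, 153 and 106, then 89.0 and 133. The B cell, fibroblast and neutrophil sums thus were higher with regorafenib in M0 and M2 and lower in M1, the T cell sum was higher in M0 and M2 with 1 count in each M1 library, and the dendritic and macrophage sums were higher in all 3 states. Within the macrophage list, Fcgr1 went the other way, with 3072 and 1184 counts in M0, 4314 and 1715 in M1, then 710 and 229 in M2, and so did Itgam, with 5301 and 4154, 7498 and 6455, then 7927 and 3625. The part of these markers in the class II levels was not tested. In such bulk libraries, fewer cells of a type and less RNA per cell cannot be told apart.

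With regorafenib, most of these genes stood well above control in M0 and M2, and little above it in M1. In M0, 7 of the 9 genes with enough counts were past 2-fold higher and 0 lower, where 9.47% of all genes tested were higher and 10.9% lower. In M2, 9 of 10 were past 2-fold higher and 0 lower, against 6.15% higher and 5.07% lower of all genes. In M1, 0 of 10 were higher and 1, March1, was lower, where 1.76% of all genes were higher and 3.46% lower. The median log2 ratio of the members tested in M0, M1 and M2 was 2.55, 0.58 and 2.48, while that of all genes tested was 0.0050, -0.02 and -0.03. The counting interval lay above 0 for 8 of 9 genes in M0, 8 of 10 in M1 and all 10 in M2. For 14 MHC class I genes in M1 it lay above 0 for 8 and below 0 for 6. The share of all genes with such an interval was not counted, so these counts have no background. None of the 10 changed the sign of a regorafenib ratio under 3 other scalings or with 1 CPM added to both values.

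**Figure D1:**
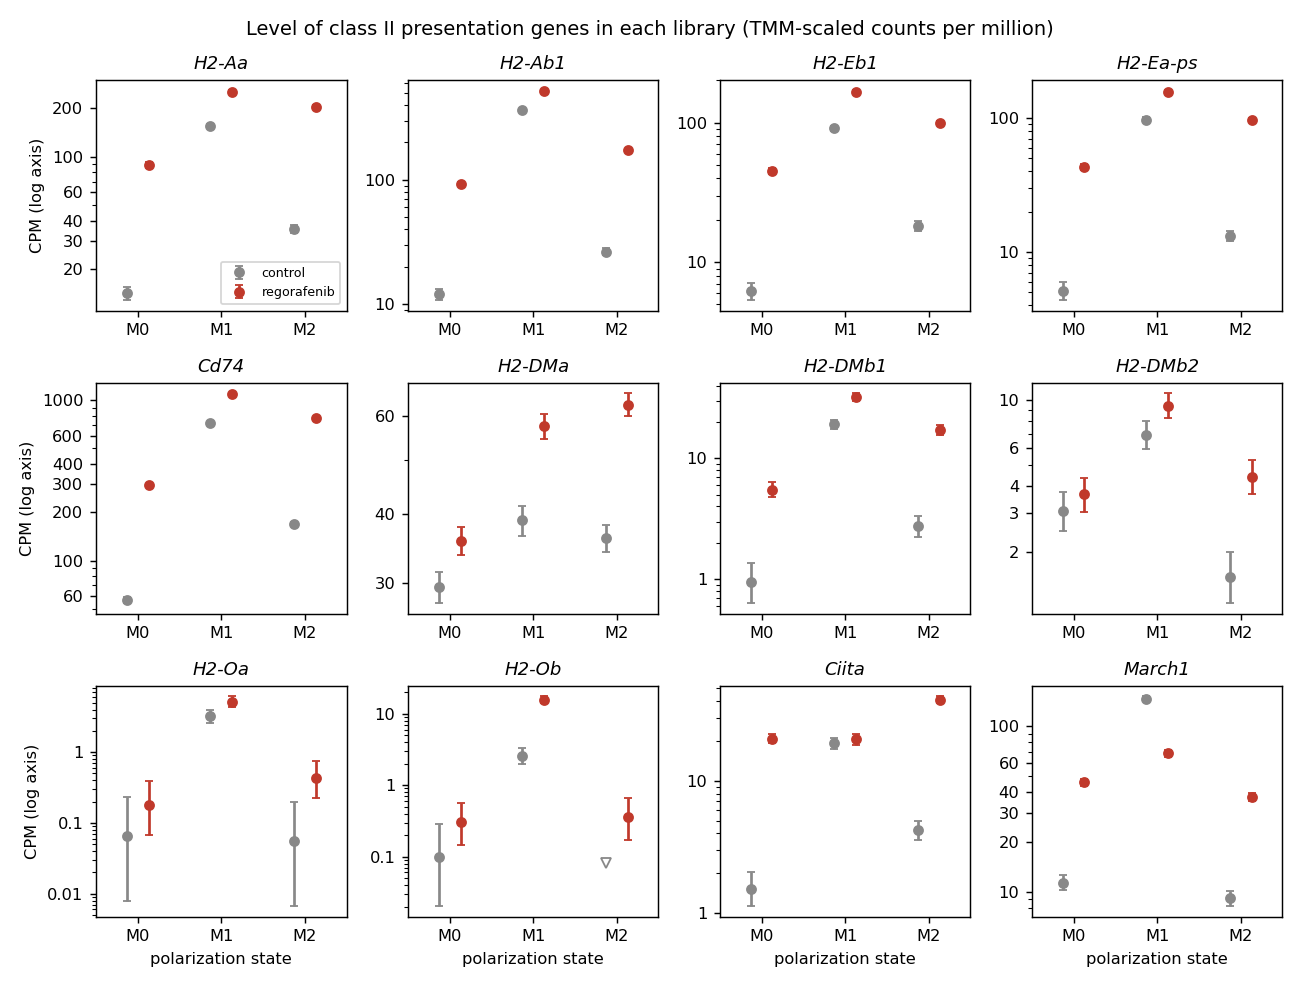
Level of 10 class II presentation genes, H2-Ea-ps and H2-Ob in each of 6 libraries, in TMM-scaled CPM on a log axis, with control in grey and regorafenib in red. Bars are exact 95% counting intervals, hidden where smaller than the point. The open triangle marks the count of 0 of H2-Ob in M2 control. It is drawn at 0.0822 CPM, the level of the count floor used for H2-Ob below. That floor is a chosen value, and the exact 95% upper limit for this count is 0.101 CPM. The red points of the chains and Cd74 sit above the grey ones in all states, and March1 is the gene whose order turns in M1.

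The chains of I-A were lowest in M0 control cells and highest in M1 regorafenib cells. H2-Aa, the α chain, stood at 14.2 CPM in M0 control, 88.7 in M0 regorafenib, 155 in M1 control, 252 in M1 regorafenib, 35.5 in M2 control and 203 in M2 regorafenib. The M2 regorafenib level of H2-Aa thus lay above that of cells given IFN-γ and LPS alone. With regorafenib, H2-Aa was 6.25-fold higher in M0 (log2 ratio 2.64, interval 2.5 to 2.79), 1.62-fold in M1 (0.70, 0.64 to 0.75) and 5.72-fold in M2 (2.52, 2.43 to 2.60). No neighbouring pair in the order of the 6 levels of H2-Aa was within counting error.

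H2-Ab1, the β chain that pairs with H2-Aa, stood at 12.0 CPM and 91.9 in M0 control and regorafenib, 362 and 516 in M1, then 26.5 and 172 in M2. Here, unlike for H2-Aa, M1 control exceeded M2 regorafenib. With regorafenib H2-Ab1 was 7.67-fold higher in M0 (log2 ratio 2.94, interval 2.78 to 3.10), 1.42-fold in M1 (0.51, 0.47 to 0.55) and 6.52-fold in M2 (2.7, 2.60 to 2.81). The smallest counts behind these ratios were 368 and 966.

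The I-E chains showed the same order of sizes. H2-Eb1 stood at 6.22 and 45.2 CPM in M0, 90.8 and 165 in M1, then 18.2 and 99.1 in M2, control first. Its regorafenib ratio was 7.27-fold in M0 (log2 2.86, interval 2.65 to 3.09), 1.82-fold in M1 (0.86, 0.79 to 0.94) and 5.46-fold in M2 (2.45, 2.33 to 2.57). H2-Ea-ps, read here as the I-E α chain of BALB/c, stood at 5.14 and 42.9 CPM in M0, 97.1 and 156 in M1, then 13.2 and 96.4 in M2. The log2 ratios of H2-Ea-ps were 3.06 in M0 (interval 2.82 to 3.31), 0.68 in M1 (0.61 to 0.75) and 2.87 in M2 (2.73 to 3.01). H2-Eb2 had 2 counts or fewer in every library and gets no ratio.

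Cd74, the invariant chain, was the most abundant of the 10 genes per exon length in all 6 libraries. It stood at 56.8 and 296 CPM in M0, 720 and 1090.3 in M1, then 169 and 770 in M2, control first. M2 regorafenib again lay above M1 control. With regorafenib Cd74 was 5.20-fold higher in M0 (log2 ratio 2.38, interval 2.31 to 2.45), 1.51-fold in M1 (0.60, 0.57 to 0.63) and 4.56-fold in M2 (2.19, 2.15 to 2.23). Divided by kilobases of exon, the level of Cd74 was 33.8 CPM per kilobase in M0 control and 649 in M1 regorafenib. In M0 control the next of the members on that scale was H2-DMa at 8.55, ahead of H2-Ab1 at 4.67, whereas in M1 regorafenib H2-Ab1 came second at 201 and H2-DMa stood at 16.7. Together the 10 genes took 0.0151% of all counts in M0 control, 0.0711% in M0 regorafenib, 0.128% and 0.187% in M1, and 0.0317% and 0.155% in M2.

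**Figure D2:**
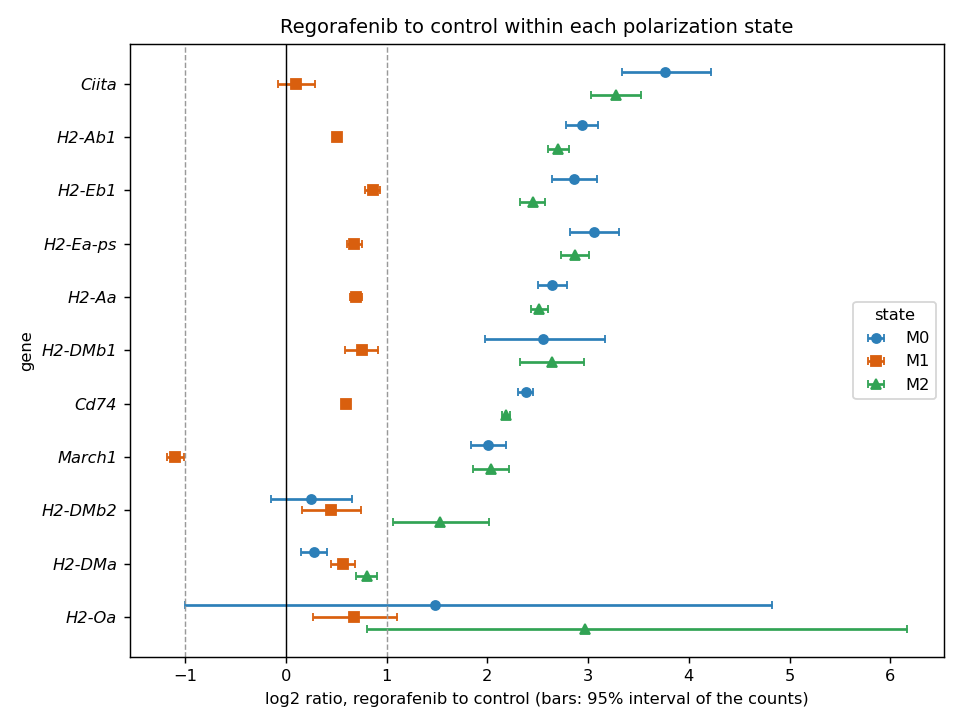
Log2 ratio of regorafenib to control within M0 (circles), M1 (squares) and M2 (triangles) for the 10 genes and H2-Ea-ps, with 95% counting intervals as bars and dashed lines at 2-fold. Each state is 1 pair of libraries. M0 and M2 lie together between 2 and 4 for the chains, Cd74, H2-DMb1, Ciita and March1, while M1 lies between 0 and 1 except for March1 at -1.10.

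The subunits of the peptide editor H2-DM had unlike ratios. H2-DMa, the α chain, stood between 29.5 CPM in M0 control and 62.9 in M2 regorafenib, a range of 2.13-fold over all 6 libraries. Its regorafenib log2 ratios were 0.28 in M0 (interval 0.15 to 0.40), 0.56 in M1 (0.44 to 0.68) and 0.80 in M2 (0.70 to 0.90), none of them past 2-fold. H2-DMa shares 360 exon bases, 10.4% of its length, with Brd2 on the opposite strand, and which strand column the counts come from is not stated.

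H2-DMb1, a β chain of H2-DM, ranged 34.1-fold. It had 29 counts in M0 control and 182 in M0 regorafenib, 494 and 776 in M1, then 101 and 482 in M2. That gave log2 ratios of 2.55 in M0 (interval 1.98 to 3.17), 0.75 in M1 (0.59 to 0.92) and 2.64 in M2 (2.33 to 2.96), close to those of the chains. H2-DMb2, the neighbouring β chain gene, had 95 and 121 counts in M0, 178 and 227 in M1, then 56 and 124 in M2. Its log2 ratio was 0.25 in M0, with an interval from -0.15 to 0.65 that spans 0, then 0.45 in M1 (0.16 to 0.74) and 1.53 in M2 (1.07 to 2.01). H2-DMb1 and H2-DMb2 are near copies: of their 100-base words, the length of a read, 11.3% and 10.3% occur in the other, so part of their reads cannot be assigned. Read on the same strand, the other 8 genes share no such word with an annotated transcript of another gene. On the opposite strand, beside the overlap of H2-DMa with Brd2, H2-Oa shares 321 exon bases, 22.8% of its length, with BC051537, which had 0 counts in each library, and March1 shares 546, 7.64%, with Gm15354, which had at most 1.

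H2-O, the inhibitor of H2-DM, was seen almost only in M1 cells. H2-Oa, its α chain, had 2 and 6 counts in M0, 83 and 124 in M1, then 2 and 12 in M2, control first. The log2 ratio of H2-Oa was 0.68 in M1 (interval 0.27 to 1.10) and 2.97 in M2, where 2 counts in the control left an interval from 0.80 to 6.17. In M0 it was 1.48, with an interval from -1.0 to 4.82 that spans 0. H2-Ob, the β chain, had 3 and 10 counts in M0, 67 and 381 in M1, then 0 and 10 in M2. The log2 ratio of H2-Ob in M1 was 2.61 (interval 2.23 to 3.0), or 6.10-fold, where the chains of I-A and I-E were between 1.42-fold and 1.82-fold higher. In M2 H2-Ob was at least 4.35-fold higher, counted against a floor of 3 counts per library, and in M0 its log2 ratio of 1.63 had an interval from -0.32 to 4.13.

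Ciita had the highest regorafenib ratio of the 10 genes in M0 and in M2, and in M1 its ratio was within counting error of 0. It had 47 counts in M0 control and 686 in M0 regorafenib, 495 and again 495 in M1, then 154 and 1144 in M2, which is 1.53 and 20.8 CPM, 19.2 and 20.5 CPM, and 4.22 and 40.9 CPM. M0 regorafenib cells, with no polarizing cytokine, thus held as much Ciita as cells given IFN-γ and LPS, and M2 regorafenib cells held the most. The log2 ratio was 3.77 in M0 (interval 3.34 to 4.22), or 13.6-fold, 0.10 in M1 (-0.08 to 0.28) and 3.28 in M2 (3.03 to 3.53), or 9.70-fold. In M0, 40 of 13964 genes had a higher ratio than Ciita, and in M2, 35 of 13813. M1 control, M1 regorafenib and M0 regorafenib, neighbours in the order of Ciita levels, were within counting error of each other. Ciita shares 329 exon bases, 3.45% of its length, with Dexi on the opposite strand.

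The factors known to act with or above Ciita had ratios below that of Ciita in M0 and M2. Of 18 genes of this list, 2 were past 2-fold higher and 2 lower with regorafenib in M0, near the background of 9.47% and 10.9% of all genes. In M1, 0 were past 2-fold in either direction, against 1.76% and 3.46%. In M2, 3 were higher and 0 lower, against 6.15% and 5.07%. Across M0, M1 and M2 the list's median log2 ratio was 0.39, -0.02 and 0.19. The RFX subunits that bind the X box stayed within 2-fold, with log2 ratios in M0, M1 and M2 of 0.55, 0.34 and 0.69 for Rfx5, 0.37, -0.18 and 0.18 for Rfxank, and 0.37, -0.13 and 0.04 for Rfxap. The Y box subunits Nfya, Nfyb and Nfyc lay between -0.69 and 0.10, and Creb1, Spi1, Irf8, Usf1, Jak1, Jak2 and Ifngr2 between -0.20 and 0.73.

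The IFN-γ pathway genes did not share a direction. Ifngr1, the ligand-binding receptor chain, had log2 ratios of 1.08 in M0, -0.15 in M1 and 1.03 in M2. Irf1, which binds a promoter of Ciita, had 0.78, -0.21 and 1.64. Socs1, a feedback inhibitor, had 63 counts in M0 control and 21 in M0 regorafenib, a ratio of -1.69, and -0.67 in M2. In the M0 pair Socs1 therefore lay on the other side of 0 from Ciita. Prdm1, known as a repressor of Ciita, had 33 and 282 counts in M0 (2.99), 1061 and 1058 in M1 (0.10), then 40 and 139 in M2 (2.18), the same signs as Ciita itself.

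March1, the ligase that removes class II from the surface, was the gene of the 10 whose regorafenib ratio differed in sign between states. It had 348 and 1504 counts in M0, 3773 and 1644 in M1, then 332 and 1042 in M2, control first. March1 was 4.03-fold higher in M0 (log2 ratio 2.01, interval 1.84 to 2.18), 4.10-fold higher in M2 (2.03, 1.86 to 2.22) and 2.14-fold lower in M1 (-1.10, -1.18 to -1.01). Its highest level was 146 CPM in M1 control and its lowest 9.09 CPM in M2 control, and no neighbours in that order were within counting error. With 1 pair of libraries per state the difference between states was not tested.

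A list on ubiquitin and turnover held 6 other genes, among them Cd86, which is also counted with the costimulatory genes below. Of the 6, 1 was past 2-fold higher in M0 and in M2, where 9.47% and 6.15% of all genes were. In M1, 0 were, where 1.76% of all genes were. In M0, M1 or M2, 0 of the 6 were lower, where 10.9%, 3.46% and 5.07% of all genes were. The gene past 2-fold was Cd83, whose product protects class II from March1, with 474 and 1409 counts in M0 (log2 ratio 1.47), 1201 and 1594 in M1 (0.51), then 513 and 1196 in M2 (1.60). March8, a related ligase, had ratios of 0.24, 0.03 and 0.02. The ubiquitin-conjugating enzymes Ube2d1, Ube2d2a and Ube2d3 lay between -0.24 and 0.27.

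For regorafenib, a shift shared by the 3 states was tested. In the quasi-likelihood test of edgeR, fitted on state and treatment, the log2 fold changes of all 10 genes were above 0, from 0.55 for H2-DMa to 2.4 for Ciita, but 0 of the 10 passed at a Benjamini-Hochberg adjusted p under 0.05, and so did 0 of 14110 genes, or 0%. At an unadjusted p under 0.05 stood 8 of the 10 and 1654 of all genes. H2-Eb1 had a log2 fold change of 2.05 ± 0.40 (SE, adjusted p = 0.299, edgeR) and Ciita 2.4 ± 0.78 (adjusted p = 0.39, edgeR). H2-Eb1 was higher in 3 of 3 states, and Ciita in M0 and M2, with 495 counts in both M1 libraries. The error of this test is the disagreement between states. Without the M1 pair, edgeR called 619 genes, among them 7 of the 9 members it kept, namely H2-Aa, H2-Ab1, H2-Eb1, H2-DMb1, Cd74, Ciita and March1. DESeq2's Wald test on all 6 libraries called 297 genes, among them these 7 except March1. With no filter on low counts edgeR called 333 of 24938 genes, among them the same 6 as DESeq2.

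Control cells of the 3 states also differed in these genes by value. Between control cells, 9 of 10 genes were past 2-fold higher in M1 than in M0, where 17.4% of all genes were higher, and H2-DMa was the exception at 0.40. The log2 ratios were 4.92 for H2-Ab1, 3.87 for H2-Eb1, 3.66 for Cd74, 3.65 for Ciita and 3.69 for March1. Between regorafenib cells, 7 of 10 were higher in M1 than in M0, against 16.3% of all genes, with 2.49 for H2-Ab1, 1.87 for H2-Eb1, 1.88 for Cd74, -0.02 for Ciita and 0.58 for March1. The M1 to M0 step was thus smaller by value with regorafenib for each of these 5. It was larger for H2-DMa, at 0.40 in control and 0.69 with regorafenib, and for H2-DMb2, at 1.16 and 1.36. The sign of the H2-DMa ratio between controls turned under scaling to total counts (-0.04), and that of Ciita between regorafenib cells under DESeq2 size factors (0.05) and upper-quartile scaling (0.02).

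Between M2 and M0 controls, 6 of 9 genes were past 2-fold higher, where 4.69% of all genes were, and 1, H2-DMb2, was lower at -1.01, where 7.61% were. H2-DMb2 had 56 against 95 counts here and was within 2-fold under upper-quartile scaling. The chains lay between 1.14 for H2-Ab1 and 1.55 for H2-Eb1, and Cd74 stood at 1.57. Between M2 and M0 with regorafenib, 5 of 10 were higher, against 4.41% of all genes, with 1.19 for H2-Aa, 0.91 for H2-Ab1, 1.13 for H2-Eb1 and 1.38 for Cd74. March1 was at -0.32 and -0.29 in these comparisons. From M2 to M1, 9 of 10 genes were higher in control cells, where 18.0% of all genes were, and 3 of 10, H2-Ab1, H2-DMb2 and H2-Oa, in regorafenib cells, where 16.3% were. Ciita turned in that last comparison, from 2.18 in control to -0.99 with regorafenib. H2-Aa turned from 0.31 to -0.08 between regorafenib cells under scaling to total counts. These ratios share the M0, M1 and M2 libraries with each other and with the drug ratios, so none is a separate measurement of the other.

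Over both treatments, edgeR's quasi-likelihood test called 7 of the 10 genes higher in M1 than in M0 and 0 lower, where 17.2% of genes were called higher. The M1 to M0 log2 fold change was 5.14 ± 0.61 for H2-Oa (SE, adjusted p = 0.0023, edgeR), 3.83 ± 0.65 for H2-Ab1 (adjusted p = 0.0071, edgeR) and 2.84 ± 0.48 for Cd74 (adjusted p = 0.0067, edgeR). H2-Aa, H2-Eb1, H2-DMb1 and H2-DMb2 passed as well. Ciita stood at 2.0 ± 0.92 (adjusted p = 0.144, edgeR) and March1 at 2.41 ± 0.83 (adjusted p = 0.0696, edgeR). Both were called with no filter on low counts and without the M0 regorafenib, M1 regorafenib or M2 control library, March1 also without the M2 regorafenib library, and Ciita also by DESeq2. Without the M0 regorafenib, M1 control or M1 regorafenib library the call of H2-DMb2 was lost, and the other 6 calls held without any one library. Without a term for treatment, H2-Oa alone kept its call (adjusted p = 0.0116, edgeR).

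M2 against M0 gave 0 of 10 calls, where 0.198% of genes were called higher, with 5 of the 10 and 1314 of all genes at an unadjusted p under 0.05. Cd74 was called by DESeq2, among 416 genes, and by edgeR with no filter on low counts, among 408. Without the M1 control or the M1 regorafenib library, edgeR called 172 genes higher in M2 each time, among them the same 5 members, namely H2-Aa, H2-Ab1, H2-Eb1, H2-DMb1 and Cd74. M1 against M2 gave 6 of 10 higher and 0 lower, where 17.8% of genes were called higher, with log2 fold changes from 1.57 for H2-DMb2 to 4.33 for H2-Oa. Those 6 were H2-Ab1, H2-Eb1, H2-DMb1, H2-DMb2, H2-Oa and March1, and March1 lost its call under DESeq2 size factors (adjusted p = 0.0523, edgeR). DESeq2's own test, and edgeR with no filter on low counts, called these 6 with H2-Aa and Cd74 added. Of all genes, they called 2699 of 14110 and 2664 of 24938 higher. Without the M2 control library H2-Oa and H2-Ab1 alone among them kept their call. Without the M1 control library H2-Eb1 and H2-DMb2 lost it, while Ciita was called lower, with a log2 fold change of -1.10. Without the M1 regorafenib library Ciita was called higher instead, at 2.30. Here too H2-Oa alone kept its call without a term for treatment (adjusted p = 0.0162, edgeR). Scaling to total counts in place of TMM left 6 of 10 called in M1 against M0 and 2 of 10 in M1 against M2. Of 14110 genes it called 1629 and 1801 higher, where TMM gave 2420 and 2512. In the 4 comparisons of M1 it moved the median log2 ratio of all genes from between -0.09 and -0.05 to between -0.51 and -0.42. The share of genes higher among those past 2-fold went from between 43.1% and 47.6% to between 27.7% and 33.5%.

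Ratios of counts between genes of 1 library need no scaling, and they showed that partners were not in fixed proportion. The I-A β to α ratio, H2-Ab1 to H2-Aa, was 0.844 in M0 control (exact 95% interval 0.733 to 0.972), 1.04 in M0 regorafenib (0.985 to 1.09), 0.745 in M2 control (0.685 to 0.811) and 0.850 in M2 regorafenib (0.817 to 0.883). In M1 it was 2.33 in control (2.25 to 2.42) and 2.05 with regorafenib (1.99 to 2.12). Both M1 libraries thus stood above the 4 others, with no overlap of intervals. The I-E pair, H2-Eb1 to H2-Ea-ps, stayed between 0.935 in M1 control and 1.38 in M2 control. The ratio of the H2-DM β chains also differed between libraries: H2-DMb1 to H2-DMb2 was 0.305 in M0 control (0.194 to 0.467) and 1.5 in M0 regorafenib (1.19 to 1.91), 2.78 and 3.42 in M1, then 1.80 and 3.89 in M2.

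The chains and their coactivator also parted. There were 18.9 counts of H2-Ab1 for each count of Ciita in M1 control (17.3 to 20.8) and 25.1 in M1 regorafenib (23.0 to 27.6), but 7.83 and 4.42 in M0 and 6.27 and 4.22 in M2, control first. M0 regorafenib and M1 regorafenib held like levels of Ciita, 20.8 and 20.5 CPM, with 91.9 and 516 CPM of H2-Ab1. These are steady levels of RNA, and the class II protein was not analysed here. BALB/c reads were mapped to the C57BL/6 genome, where the class II chains differ in sequence, and its effect on the counts was not tested.

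**Figure D3:**
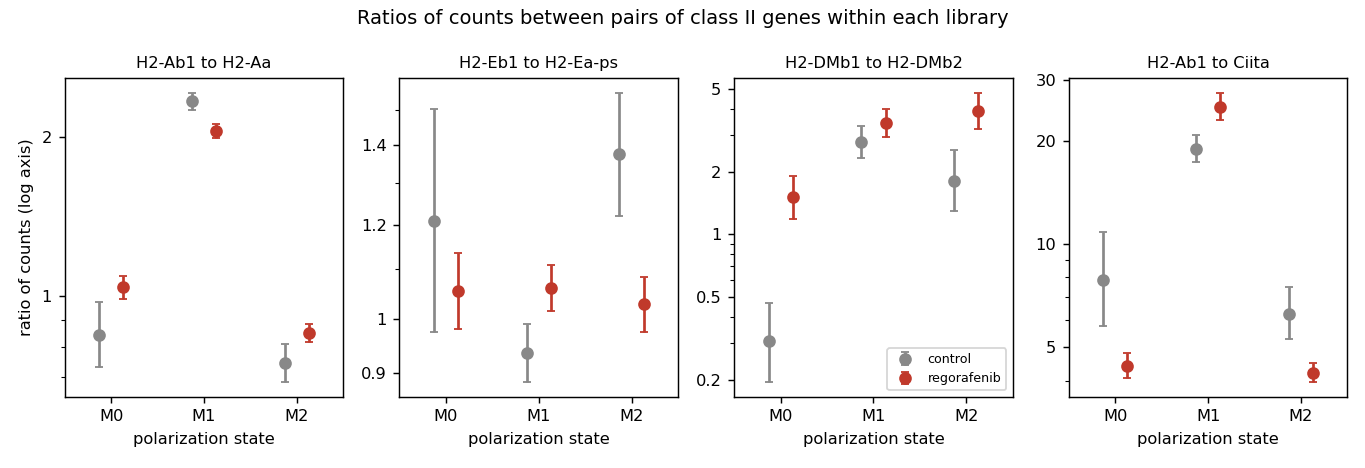
Ratio of counts between 4 pairs of class II genes within each library (log axes), with control in grey, regorafenib in red and exact 95% intervals as bars. H2-Ab1 to H2-Aa stands at 2.33 and 2.05 in M1 and between 0.745 and 1.04 elsewhere, and H2-Ab1 to Ciita at 18.9 and 25.1 in M1 and between 4.22 and 7.83 elsewhere.

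The endosomal genes that prepare peptides and trim the invariant chain had small regorafenib ratios. Of 10 such genes, 0 were past 2-fold higher in M0, where 9.47% of all genes were, and 0 in M1, where 1.76% were. In M2, 1 was higher, the protease Ctsh at a log2 ratio of 1.12, where 6.15% of all genes were. The counting interval lay above 0 for 7 of the 10 in M0, 3 in M1 and 8 in M2, and below 0 for 2, 5 and 1. The share of all genes with such an interval was not counted. Their difference from the class II genes was not tested. Ctss, the protease that cuts the invariant chain in antigen-presenting cells, had log2 ratios of 0.71, -0.18 and 0.43 for M0, M1 and M2, beside a list median of 0.30, -0.05 and 0.26. Between control cells, Lgmn, an asparaginyl endopeptidase, had an M1 to M0 log2 ratio of -2.03 and Ifi30, a thiol reductase, of -1.79, whereas the proteases Ctsh and Ctsz had 2.03 and 1.43, and Sppl2a, which cleaves the last membrane stub of the invariant chain, 1.94.

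The MHC class I genes, which show peptides of the cytosol to CD8+ T cells, were measured in the same libraries. Of 14 genes, 2, the heavy chains H2-K1 (log2 ratio 1.17) and H2-D1 (1.11), were past 2-fold higher with regorafenib in M0, where 9.47% of all genes were. In M1 and M2, 0 of the 14 were higher, where 1.76% and 6.15% of all genes were, and 0 were lower in the 3 states, where 10.9%, 3.46% and 5.07% were. The class I median was -0.37 in M0, 0.03 in M1 and 0.18 in M2, beside 2.55, 0.58 and 2.48 for the class II genes, a difference that was not tested. Nlrc5, the coactivator of class I genes and a relative of Ciita, had 1703 and 1413 counts in M0 (-0.37), 8871 and 7347 in M1 (-0.17), then 1204 and 978 in M2 (0.08). H2-K1 had 16759 and 40478 counts in M0 and 18668 and 26297 in M2, a log2 ratio of 0.88 in M2. Over both treatments, edgeR's quasi-likelihood test called all 14 class I genes higher in M1 than in M0, where 17.2% of genes were called higher.

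Finally, the genes with the profile nearest to the chains were sought among the 11313 genes that reached 100 counts in some library. Likeness is the root mean square difference (RMS) between a gene's log2 CPM, centred on its mean over 6 libraries, and the mean centred profile of H2-Aa, H2-Ab1 and H2-Eb1, so 0 is identity. H2-Ea-ps ranked first at 0.117, ahead of H2-Eb1 at 0.129, which is itself part of that mean, and H2-DMb1 (0.209) and Cd74 (0.268) followed. The next genes outside the list were Tnfrsf1b (0.644), Fgl2 (0.651), Rffl (0.701), Ralgds (0.723), Gspt2 (0.752), Iqgap2 (0.773) and Csf2rb (0.775). Ciita stood among them at 0.687 (rank 9), and March1 at 0.853 (rank 25). H2-DMb2 at 1.12 (rank 175), H2-Oa at 1.31 (rank 533) and H2-DMa at 1.38 (rank 810) were far. These likenesses describe 6 libraries that share state and treatment. Tnfrsf1b, a TNF receptor, had 9839 and 29975 counts in M0, 96698 and 87571 in M1, then 16370 and 32402 in M2.

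**Figure D4:**
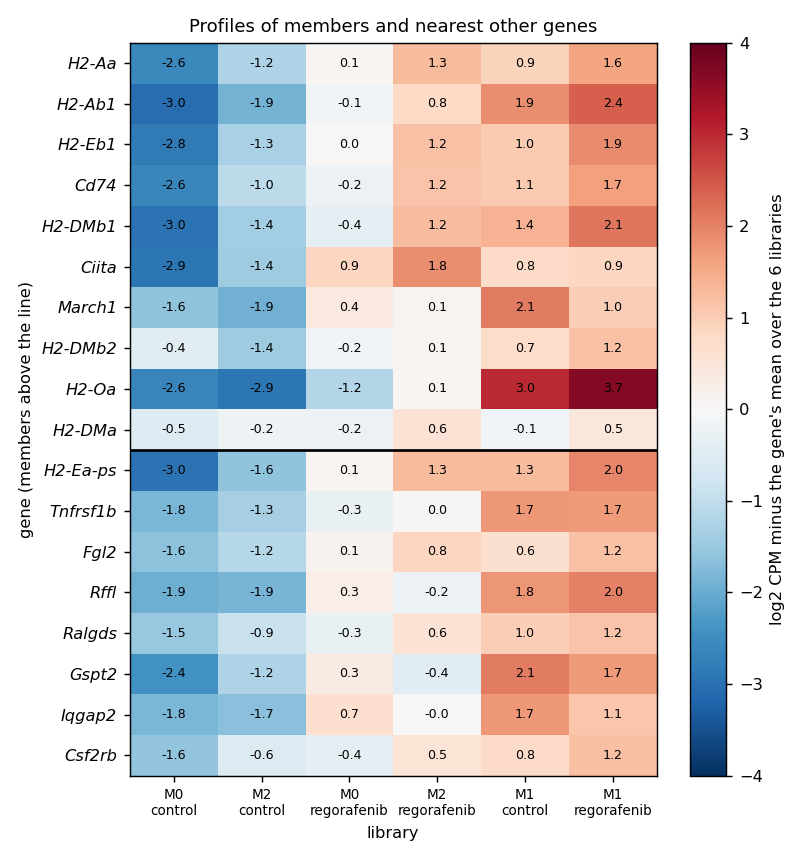
Centred log2 CPM of the 10 class II genes (above the line) and of the 8 nearest other genes (below it) in the 6 libraries, as a colour scale with the value in each cell. M0 control and M2 control are the lowest columns for the chains, Cd74, H2-DMb1 and Ciita, and M0 regorafenib lies near the mean of the chains.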

How the data were processed

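RNA-seq counts of 6 BMDM libraries were analysed. The deposited values are unnormalized counts of reads per gene, which the authors made by trimming with cutadapt 2.4, mapping to GRCm38 with STAR 2.7.2a and counting on Gencode annotation. The kit was stranded, and the strand column counted is not given in the sources used here. Names and exon lengths came from Gencode M21, where 53229 gene IDs matched with their version, 1180 without it and 37 not at all. Counts were scaled by TMM (edgeR 4.0.16, R 4.3.3), a count of 0 was set to 0.5 in ratios, and intervals are at 95%. edgeR's quasi-likelihood test was fitted on state and treatment over the 14110 genes kept by filterByExpr, with DESeq2 1.42.0 as an alternative and self-tests on simulated data. There were 9 library pairs. The members and lists were chosen with earlier results of these data known. Named were the members, other class II chains, class II transcription genes, the label genes Nos2 and Mrc1 and the 8 nearest profiles. Also named were list genes past 2-fold with at least 100 counts (otherwise a list's extremes). With 1 library per condition, a p measures the spread left between libraries once state and treatment are fitted. Values of 3 genes of the marker, label and transcription lists are not reported here.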

Additional observations from a re-analysis of the deposited data

Results flagged for a closer look

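March1 is listed here because it was past 2-fold in opposite directions with regorafenib in different states: its log2 ratio of regorafenib to control was 2.01 in M0, 2.03 in M2 and -1.10 in M1. In M1 the value was at the edge of the 2-fold threshold, with a counting interval from -1.18 to -1.01. Each ratio compares 1 library with 1 library, and the difference between states was not tested.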

How the results depend on the processing

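Depth limits H2-Oa, H2-Ob and H2-Eb2, which had 12 counts or fewer outside M1. Of 424 ratios of the members, H2-Ea-ps and H2-Ob recomputed under DESeq2 size factors, total counts, upper-quartile scaling or 1 CPM added to both values, 351 stayed within their counting interval and 73 moved, 42 of them under total counts. Of 216 list counts, 206 stayed within 1.5 times the value given. With a 4-fold threshold, members past it for regorafenib numbered 7 in M0, 0 in M1 and 8 in M2. Of all genes tested, 746 of 13964, 125 of 13440 and 338 of 13813 were past it. Between control cells, 8 members were past it for M1 to M0, 0 for M2 to M0 and 9 for M1 to M2, beside 2645, 415 and 2813 of all genes. Between regorafenib cells these numbers were 3, 0 and 1, beside 2607, 352 and 2610.

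The count of all genes past 2-fold with regorafenib in M0, M1 and M2 went from 2851, 701 and 1551 to 1495, 154 and 565 with 1 CPM added, 6688, 4139 and 5275 with no minimum count, 1594, 176 and 655 with at least 100 counts, and 746, 125 and 338 past 4-fold. For M1 to M0 in control and regorafenib it went from 5263 and 5367 to 9577 and 9484 with no minimum, 3459 and 3519 with at least 100, and 2645 and 2607 past 4-fold. For M2 to M0 it went from 1700 and 1328 to 780 and 451 with 1 CPM added, 5387 and 4953 with no minimum, 863 and 492 with at least 100, and 415 and 352 past 4-fold. For M1 to M2 it went from 5403 and 5073 to 9866 and 9210, 3592 and 3334, and 2813 and 2610.

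For regorafenib over states, edgeR called 333 genes with no filter and 0 to 619 with a pair left out, and DESeq2 called 297. For M2 against M0, 31 genes became 408 with no filter, 0 without treatment as a block, 416 with DESeq2 and 75 to 284 with a library left out. For M1 against M0 and M1 against M2, the counts of 5161 and 5282 became 4220 to 5090 and 3185 to 5809 with a library left out. Directions turned for members without a call: March1 over states without state as a block (-0.14), Ciita in M1 against M2 without treatment as a block (-0.18), and H2-DMa in M1 against M2 under DESeq2 size factors (0.032) and DESeq2 (0.048). Leaving out a library gave log2 fold changes in M2 against M0 from -0.96 to 0.23 for H2-DMb2, from -0.61 to 1.43 for H2-Oa and from -1.31 to 0.70 for March1, and in M1 against M2 from -0.17 to 0.18 for H2-DMa and from -1.10 to 2.30 for Ciita. The cause was not tested. The fit over states compares regorafenib with control within each state, and no block on replicate numbers could be added because the labels carry none.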

Other observations

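The costimulatory genes, which T cells need beside class II, had regorafenib ratios that varied by state. Of 5 genes, 0 were past 2-fold higher and 1 lower in M0, where 9.47% and 10.9% of all genes were, 1 higher and 0 lower in M1, against 1.76% and 3.46%, and 0 higher and 2 lower in M2, against 6.15% and 5.07%. Their median log2 ratio was -0.28 in M0, 0.79 in M1 and -0.31 in M2. In M1 the counting interval lay above 0 for 4 of the 5 and below 0 for 0, with no share of all genes counted beside it. The difference from the class II genes was not tested. Cd40, the receptor for CD40 ligand, had 61 and 11 counts in M0 (log2 ratio -2.57), 8957 and 15600 in M1 (0.90), then 260 and 55 in M2 (-1.86), control first. Cd80 had 798 and 549 counts in M0 (-0.64), 607 and 981 in M1 (0.79), then 1286 and 329 in M2 (-1.58). Icosl was past 2-fold higher in M1 at 1.30, with 2438 and 5604 counts, and stood at -0.28 in M0 and -0.31 in M2. Cd86 lay between -0.10 and 0.16 in the 3 states, and Icam1 had 0.15 in M0, 0.79 in M1 and 0.27 in M2. In M0 and M2, where the class II chains were higher with regorafenib, Cd40 and Cd80 were thus lower by value.

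H2-Ob in M1 had a higher regorafenib ratio than all but 19 of 13440 genes tested, and its partner H2-Oa was within 2-fold there. The count ratio of H2-Ob to H2-Oa was 0.807 in M1 control (exact 95% interval 0.576 to 1.13) and 3.07 in M1 regorafenib (2.5 to 3.79).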
